A study of Mus musculus with 51 samples.

Results

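The class I olfactory receptors (ORs) of the mouse were followed through 51 libraries made by pS6-IP-Seq from the whole olfactory mucosa. They were taken as the OR genes numbered *Olfr543* to *Olfr692* together with *Olfr33*, *Olfr64*, *Olfr65*, *Olfr66*, *Olfr67*, *Olfr68*, *Olfr69* and *Olfr78*, which gave 126 of the 1117 OR genes listed (11.3%), 118 by number and 8 by name. In pS6-IP-Seq, ribosomes carrying phosphorylated S6 protein, a mark of recent neuronal activity, are immunoprecipitated and their mRNA is sequenced, so that the OR expressed by an activated olfactory sensory neuron (OSN) takes a larger part of the reads. Each library came from a litter-matched juvenile wild type C57BL/6J mouse that had been exposed briefly to an odorant or to diluent alone.

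The odorants were volatiles known from mouse urine and a musk: SBT (a dihydrothiazole) at 0.01%, 1% and 100%, MTMT ((methylthio)methanethiol) at 100 μM and 10 mM, β-farnesene at 100%, 2,5-DMP (a dimethylpyrazine) at 1%, DHB (a brevicomin) at 77%, β-caryophyllene at 1% and the macrocyclic musk CPD (cyclopentadecanone) at 100 mM. Each of the 10 odor groups had 3 libraries, and 7 control groups had 3 each. The farnesene, 2,5-DMP and 100 μM MTMT groups were compared with the same 3 control libraries, and the 1% and 100% SBT groups with another 3, so those comparisons are not independent. MTMT and CPD were diluted in ethanol and the others in water, but the paper names no diluent for 100% SBT. The labels do not say which diluent each control mouse received. For at least 1 comparison with shared controls odor and diluent therefore cannot be told apart. If the 100% SBT mice received no diluent, odor and its absence cannot be told apart there either.

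Class I receptors resemble the receptors that fish use for water-borne odorants. In rodents their genes form a single cluster on chromosome 7 that encloses the β-globin locus, they are expressed mainly in the dorsal zone of the olfactory epithelium, and their choice depends on a long-range enhancer, the J element. Many of those with known ligands respond to carboxylic acids.

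The positions, taken from GRCm38 with GENCODE M21, placed 126 of 126 members on chromosome 7 between 102476579 and 105369355, a span of 2.89 Mb, with 63 on each strand. By coordinate, 72 members lay before the 7 β-globin genes and 54 lay beyond them. The rule by number was checked against the coding sequences by shared 12-base words. Of 125 members with a coding sequence, 118 had another member as their nearest relative among all ORs, and 7 did not (*Olfr556*, *Olfr571*, *Olfr628*, *Olfr643*, *Olfr657*, *Olfr658* and *Olfr686*). *Olfr628* was nearest to *Olfr243*, the 1 other OR gene inside the span, with 79.3% of words shared, and *Olfr658* and *Olfr657* were nearest to *Olfr503* (70.8%) and *Olfr504* (57.7%). By this measure those 3 ORs stood with the class although their numbers leave them out, and they were kept outside. *Olfr362*, also outside the rule, likewise had a member as its nearest relative (*Olfr601*), but with 1.93% of words shared. The other 4 exceptions shared at most 2.45% of words with any OR. Members were more diverse than other ORs, with a median of 10.96% of words shared with the nearest relative against 34.8%.

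The 250 bases before the transcript start are shown for 4 members on which the results turn: *Olfr545* and its nearest relative *Olfr544*, which were high in the same library, and *Olfr642* and *Olfr550*, which fell after 100% SBT. They were read from GRCm38 in the direction of transcription at chr7:102499574-102499823 (*Olfr545*, minus strand), chr7:102488314-102488563 (*Olfr544*, minus strand), chr7:104052667-104052916 (*Olfr642*, minus strand) and chr7:102571192-102571441 (*Olfr550*, plus strand). Capitals mark the homeodomain core words TAATTA and TAATTG and the Ebf word CCCNNGGG, on either strand, since homeodomain and Ebf sites are the known elements of OR promoters.
Olfr545: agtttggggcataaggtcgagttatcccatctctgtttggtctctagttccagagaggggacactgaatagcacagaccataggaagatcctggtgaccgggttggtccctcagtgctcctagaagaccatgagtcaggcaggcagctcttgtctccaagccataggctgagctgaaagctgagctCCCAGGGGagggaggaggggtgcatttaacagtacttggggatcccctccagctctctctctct
Olfr544: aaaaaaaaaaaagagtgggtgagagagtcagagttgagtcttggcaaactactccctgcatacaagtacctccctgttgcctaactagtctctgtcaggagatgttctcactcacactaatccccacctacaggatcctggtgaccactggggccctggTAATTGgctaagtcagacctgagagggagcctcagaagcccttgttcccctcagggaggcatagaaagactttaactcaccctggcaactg
Olfr642: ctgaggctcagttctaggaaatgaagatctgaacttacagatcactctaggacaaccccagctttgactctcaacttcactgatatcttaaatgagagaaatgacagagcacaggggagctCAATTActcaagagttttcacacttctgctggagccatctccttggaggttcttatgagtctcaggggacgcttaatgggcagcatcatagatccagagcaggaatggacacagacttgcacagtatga
Olfr550: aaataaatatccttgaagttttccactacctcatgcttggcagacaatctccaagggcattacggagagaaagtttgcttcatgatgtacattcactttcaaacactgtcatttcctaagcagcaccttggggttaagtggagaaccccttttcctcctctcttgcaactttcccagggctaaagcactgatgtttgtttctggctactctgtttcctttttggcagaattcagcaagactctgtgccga
*Olfr544* and *Olfr642* each held 1 TAATTG word, *Olfr545* held 1 CCCNNGGG word and *Olfr550* held none of the 3. Over the promoters of the class, TAATTA was found in 17 of 112 (15.2%) against 23.1% of all 1007 OR promoters read, and TAATTG in 16 of 112 (14.3%) against 31.3%. At least 1 of these homeodomain words stood in 30 class I promoters (26.8%), against 47.3% over all ORs and 49.8% over the 895 other ORs. CCCNNGGG stood in 19 of 112 (17.0%) against 14.3% over all ORs. These are matches of letters only.

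Only OR genes are listed in the tables, so markers of other cells of the mucosa were not measured here, and each value below is a part of the OR reads. A smaller share can come from fewer activated cells or from less RNA per cell, which cannot be told apart in these bulk libraries. OR reads ranged from 27301 to 160001 per library (median 93870) and class I reads from 2724 to 15690. Between 111 and 124 members had at least 1 read in a library (median 119), 94 had a read in every library, and 9 had fewer than 100 reads over all 51. At the low end stood *Olfr564* with 5 reads in all, *Olfr688* with 13, *Olfr631* with 15 and *Olfr663* with 16. Shared sequence limits what counts can say of single genes, in the class and outside it. Of 126 members, 80 shared at least 1 word of 50 bases with another OR. Over 10% of words were shared by 31 members, with *Olfr688* (84.2%) and *Olfr687* (80%) highest. Of 981 other ORs, 750 shared a word and 242 shared over 10%.

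In the 21 control libraries class I receptors took 9.59 ± 1.46% of OR reads (SD, n = 21), from 6.39% to 12.2%. To compare genes, levels were expressed as reads per kb of exon per 100000 OR reads. On that scale the median member stood at 16.7 and the median other OR at 13.8, and 10 members were among the 100 highest ORs. No member was among the 10 ORs with the most reads, and 23 members made up 50% of the class I reads of the controls.

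*Olfr672* had the highest level of the class, 241 ± 51.2 (SD, n = 21), and ranked 14 of all ORs. *Olfr599* (129 ± 62.7), *Olfr549* (127 ± 35.0), *Olfr669* (97.8 ± 31.6), *Olfr557* (90.2 ± 32.0) and *Olfr642* (87.4 ± 43.4) followed on the same scale. The range of *Olfr599* over control libraries, 56.8 to 342, overlapped that of each of its neighbours in this order, *Olfr672* included (141 to 362). *Olfr597* stood at 82.9 ± 23.3, *Olfr665* at 69.0 ± 17.0, *Olfr544* at 67.3 ± 15.4 and *Olfr571* at 45.2 ± 10.1. Before the β-globin genes the median level was 17.6 and beyond them 14.9.

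**Figure D1:**
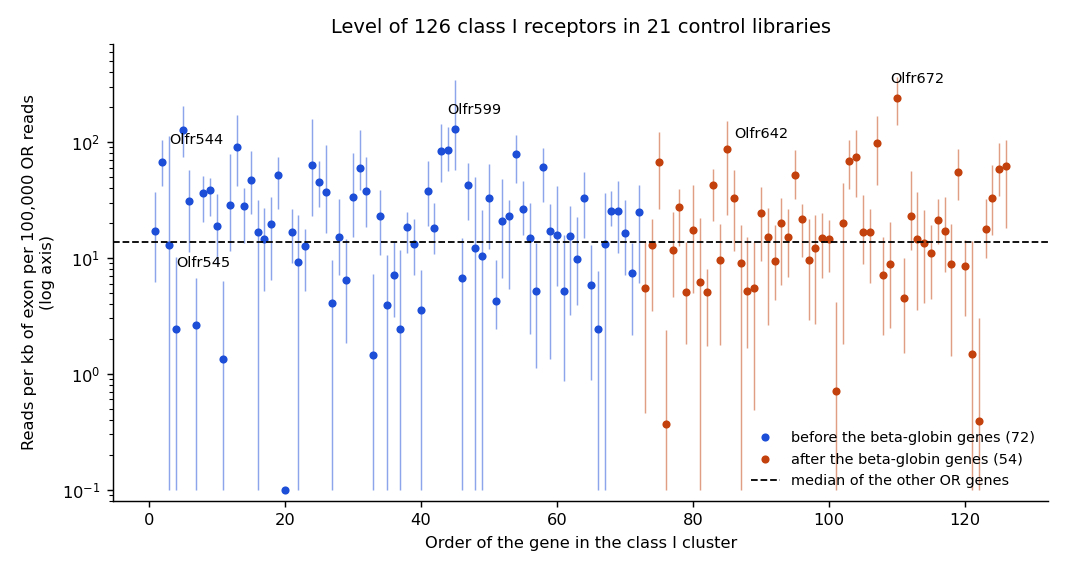
Mean level of each of 126 class I receptors over 21 control libraries, in reads per kb of exon per 100000 OR reads on a log axis, by order along the cluster; bars span the lowest to the highest control library and values under 0.1 are drawn at 0.1. High and low genes alternate along both sides of the β-globin genes, and *Olfr672* stands highest at 241.

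Members also differed in how much they varied between control mice. Among 75 members with at least 30 reads on average, *Olfr629* was the steadiest, with a coefficient of variation of 19.9% over the 21 controls, followed by *Olfr553* (20.9%), *Olfr591* (21.1%) and *Olfr672* (21.2%). At the other end stood *Olfr617* (60.8%), *Olfr556* (57.6%), *Olfr635* (57.1%) and *Olfr570* (56.0%). *Olfr642*, the member with the largest share of reads, varied by 49.7%, from 0.109% to 0.715% of OR reads. Its level differed between some experiments and also within them: the 3 controls of the farnesene, 2,5-DMP and 100 μM MTMT groups had 0.109%, 0.122% and 0.217%, while the 3 controls of β-caryophyllene had 0.665%, 0.686% and 0.714%, with no overlap. Within other control groups of 3 it spread nearly as widely. The ranges were 0.223% to 0.715% (10 mM MTMT controls), 0.136% to 0.491% (0.01% SBT controls) and 0.167% to 0.481% (DHB controls). Library titles carry a prefix, of unstated meaning, that differs within the 10 mM MTMT and DHB controls but not within the 0.01% SBT controls. Over the CPD and 10 mM MTMT controls, prefix 3046 had 0.484% to 0.715% and prefix 3134 had 0.223% to 0.284%. In the DHB controls prefix 4429 had 0.167% to 0.244% and prefix 4575 had 0.481%. Within a group of 3 libraries the median coefficient of variation was 28.7% for members and 26.9% for the 537 other ORs with as many reads.

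After most odors the summed share of the class overlapped that of the controls. Over all 51 libraries the class I share ran from 5.50% to 24.0% with a median of 8.94%, and without the highest library from 5.50% to 12.2%. Both ends belonged to SBT. The share was 5.78%, 5.50% and 6.45% in the 3 libraries of 100% SBT, against 11.4%, 10.8% and 9.98% in their controls, so that no library of either group reached the other. It was 24.0%, 9.66% and 8.25% at 1% SBT, where the first library stood far above the others and the other two lay below every control. At 0.01% SBT it was 9.80%, 10.7% and 9.25% against 7.95%, 12.2% and 9.86% in another control group, and the groups overlapped.

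Among the other exposures, 10 mM MTMT gave 9.50%, 6.71% and 5.91% against 8.77%, 10.5% and 8.99%, and its first library lay inside the control range. In the library at 5.91% an OR outside the class, *Olfr541*, held 9.79% of OR reads. Without *Olfr541* the class I share of that library was 6.55%. The 100 μM MTMT libraries, at 8.57%, 8.003% and 8.11%, overlapped the lowest of their controls, which had 8.94%, 8.39% and 9.48%. Group means were 8.03 ± 1.24% for farnesene and 8.04 ± 0.910% for 2,5-DMP against 8.93 ± 0.545% in the same controls, 8.36 ± 2.34% for DHB against 9.33 ± 1.75%, 7.44 ± 1.37% for CPD against 8.84 ± 2.35%, and 10.7 ± 1.73% for β-caryophyllene against 9.88 ± 1.59% (SD, n = 3 each). Odor and control libraries overlapped in each of these 5 comparisons.

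**Figure D2:**
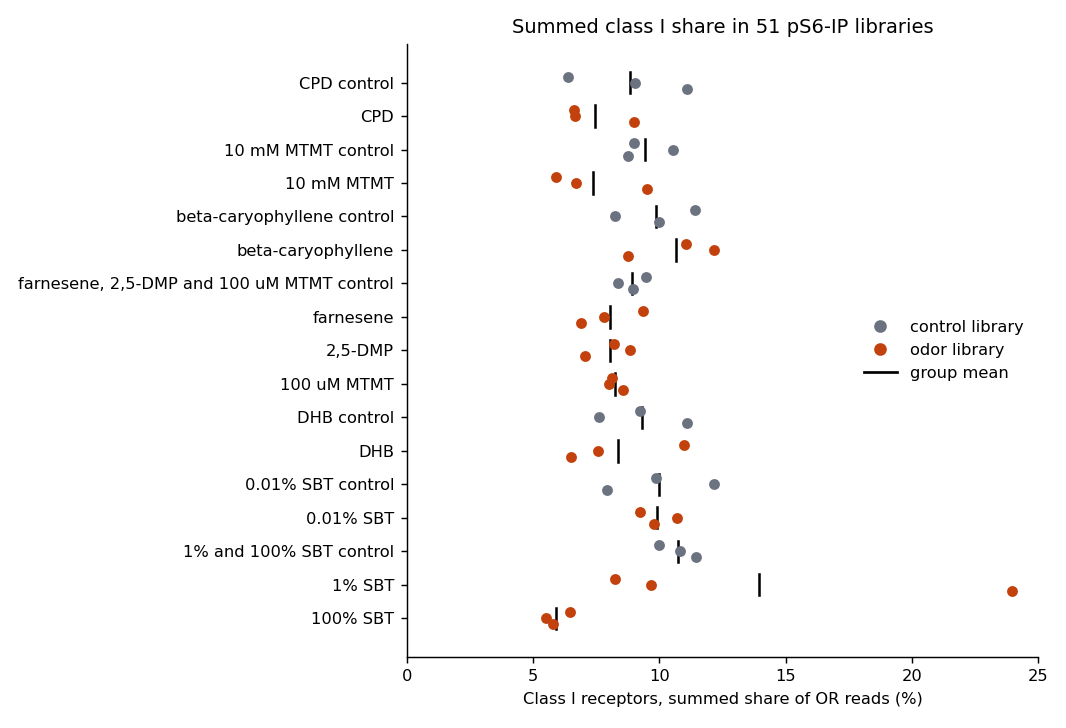
Summed share of class I receptors in the OR reads of each library (percent), by group, with 3 libraries per group; grey points are control libraries, orange points odor libraries and black lines group means. The 100% SBT libraries lie between 5.50% and 6.45%, below their controls, and a single 1% SBT library reaches 24.0%.

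Each odor was compared with its controls by edgeR's quasi-likelihood test over all ORs with at least 10 reads, without a term for replicate number. Benjamini-Hochberg adjustment ran over those ORs, with a threshold of 0.05. Between 116 and 121 members could be tested per comparison, 114 in all 10 and 4 in none. Over the 10 comparisons no member rose and 2 fell in 1185 tests of members, while among all ORs 163 rose and 8 fell in 10590 tests. No member passed at 0.01% SBT (0 of 121, against 0.466% of all ORs), 1% SBT (0 of 116, against 0.863%), 100 μM MTMT (0 of 120, against 0.281%), farnesene (0 of 121, against 1.77%), 2,5-DMP (0 of 119, against 0.841%) or DHB (0 of 120, against 0.564%). After 10 mM MTMT, CPD and β-caryophyllene the share of all ORs called was itself 0%. With backgrounds this low, a count of 0 among about 120 genes does not separate class I from the other ORs. At an unadjusted p under 0.05, between 2 of 117 (CPD, against 3.81% of all ORs) and 9 of 119 (2,5-DMP, against 4.39%) members passed in these 9 comparisons, and DESeq2 also called none in them. With replicate number as a block, *Olfr557* passed after 2,5-DMP, as did 1.59% of all ORs.

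The median log2 fold change of members was below that of all tested ORs in 8 of 10 comparisons. Apart from 100% SBT the largest gap was after 2,5-DMP, at -0.20 against 0.01, with 86 of 119 members below 0 (72.3%, against 49.3% of all ORs). After farnesene the medians were -0.19 and -0.03 with 71.1% of members below 0, and after 1% SBT -0.17 and 0.02. In β-caryophyllene the order was the other way, 0.10 against 0.02.

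**Figure D3:**
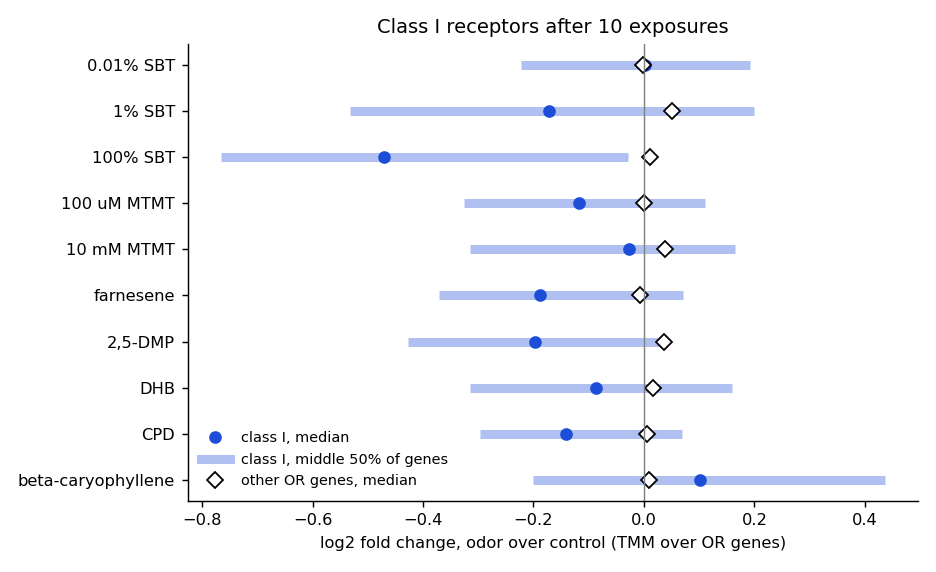
Median log2 fold change, odor over control, of the class I receptors tested (filled points, with bars for the middle 50% of genes) and of the other ORs tested (open diamonds) in each of 10 comparisons. The class I median lies lowest after 100% SBT, at -0.47.

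After 100% SBT the class lay lower than the other ORs. No member rose, where 10.7% of all ORs did (112 of 1050), and 2 of 116 fell, where 0.762% did (8 of 1050). The median log2 fold change was -0.47 over members and -0.07 over all ORs, and 75% of members lay below 0 against 52.5% of all. In 39 members (33.6%) every odor library was below every control, against 20.3% of all ORs. The reverse held for 1 member, *Olfr551* (log2 fold change 2.21, SE 1.06, adjusted p = 0.265), which is outside the rule for naming, against 13.3% of all ORs. Members before the β-globin genes (median -0.47, 66 tested) and beyond them (-0.48, 50 tested) lay alike.

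Shares sum to a whole, so a rise in some ORs lowers the share of the rest. The 112 ORs that rose held 41.0% to 44.4% of OR reads in the 100% SBT libraries and 13.9% to 15.1% in the controls. With their reads left out, class I receptors held 9.89% to 10.9% of what remained after 100% SBT and 11.8% to 13.3% in the controls. The reads left out were chosen by the same comparison, so these values are a description, and how much of the lower class I share goes with them was not tested. The median log2 fold change of the other ORs that were not called higher was -0.13. Scaled by library totals alone, the medians were -0.86 for members and -0.47 for all ORs.

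*Olfr642* fell most. Its share of OR reads was 0.579%, 0.520% and 0.363% in the controls and 0.124%, 0.0402% and 0.0869% after 100% SBT, well below every control library. The log2 fold change was -2.16 (SE 0.41, edgeR quasi-likelihood test, adjusted p = 0.00263). At 1% SBT the same receptor had 0.251%, 0.2999% and 0.187%, between the groups and overlapping neither. There the log2 fold change was -0.87 (SE 0.37, adjusted p = 0.906), and the difference between 100% and 1% SBT was -1.27 (SE 0.40, adjusted p = 0.0647), which did not pass. *Olfr642* shared 0.129% of its 50-base words with another OR.

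*Olfr550* also fell after 100% SBT, from 0.282%, 0.150% and 0.267% to 0.0919%, 0.0737% and 0.0452%. The log2 fold change was -1.31 (SE 0.40, adjusted p = 0.0492). No library of the odor group reached the lowest control, but the call rested on a narrow margin: its adjusted p was between 0.0766 and 0.216 when control replicate 1, control replicate 3 or any 1 of the 3 odor libraries was left out. At 1% SBT *Olfr550* had 0.0700%, 0.136% and 0.115% (log2 fold change -1.01, SE 0.40, adjusted p = 0.822).

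*Olfr557* came next, with 0.459%, 0.213% and 0.330% in controls and 0.134%, 0.0928% and 0.116% after 100% SBT. Its log2 fold change was -1.16 (SE 0.36, adjusted p = 0.0549). *Olfr655* (-1.35, adjusted p = 0.0609), *Olfr577* (-1.29, 0.0637) and *Olfr572* (-1.74, 0.0661) lay as close to the threshold, and these 3 are named after their values had been seen. Deviations of odor and control libraries of equal number correlated weakly here, at 0.134, 0.165 and 0.159, above the cut of 0.1 set for a block. The titles of replicate 3 also carry another prefix, so number and prefix are not separate. When replicate number entered as a block, 5 of 116 members fell, where 1.71% of all ORs did (18 of 1050): *Olfr642*, *Olfr557*, *Olfr550*, *Olfr655* and *Olfr577*.

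*Olfr672*, the member with the highest level, had 0.245%, 0.539% and 0.337% in controls and 0.190%, 0.247% and 0.224% after 100% SBT, overlapping (log2 fold change -0.37, SE 0.33, adjusted p = 0.595). *Olfr571* had a log2 fold change of 0.69 (SE 0.33, adjusted p = 0.261), above 0 unlike most of the class. Of the 10 members with the largest shares in controls, *Olfr571* alone was above 0 after 100% SBT.

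**Figure D4:**
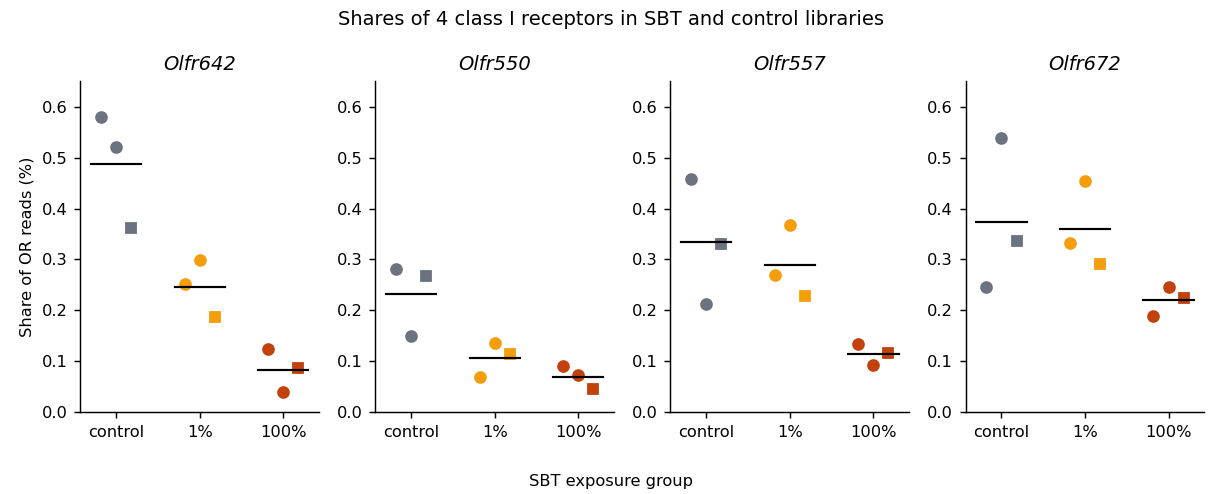
Share of OR reads (percent) of *Olfr642*, *Olfr550*, *Olfr557* and *Olfr672* in the control, 1% SBT and 100% SBT libraries, 3 per group; squares mark replicate 3, whose library titles carry another prefix, and lines mark group means. *Olfr642* descends without overlap from the controls to 1% and to 100% SBT, whereas *Olfr672* overlaps between groups.

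The titles of the SBT libraries carry 2 prefixes, SerC for replicates 1 and 2 and SerD for replicate 3, whose meaning the labels do not give. Within SerC the class I share was 10.8% to 11.4% in controls and 5.50% to 5.78% after 100% SBT, and within SerD it was 9.98% and 6.45%. *Olfr642* was lower after 100% SBT within both, at 0.520% to 0.579% against 0.0402% to 0.124% and at 0.363% against 0.0869%. With the prefix as a block *Olfr642* alone of the members passed, and 0.571% of all ORs were lower.

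*Olfr545*, a receptor also known as S50, gave the highest value of any member. In replicate 1 of 1% SBT it took 5964 of 41426 OR reads, a share of 14.4% (95% Wilson interval 14.1% to 14.7%) and 622 times its median of 0.0231% over the 51 libraries. It ranked first of all ORs there and made up 60.1% of class I reads. The other two libraries of 1% SBT had 0.336% and 0.0377%, so the high value was not shared by the group. The log2 fold change at 1% SBT was 4.99 (SE 1.57, edgeR adjusted p = 0.442), and without that library it was -0.04.

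The same receptor was raised in 2 more libraries of the experiment, of which 1 was a control. SBT control replicate 1 had 174 reads of *Olfr545* (0.395%, 17.1 times the median) and replicate 2 of 1% SBT had 223 (0.336%, 14.5 times). All 3 carry the title prefix SerC. Over the 6 libraries with that prefix the share of *Olfr545* ran from 0.0441% to 14.4% with a median of 0.220%, and over the 3 with SerD from 0.0174% to 0.0586%. In the 42 libraries with other prefixes it was at most 0.0643%. After 100% SBT *Olfr545* had 0.0441%, 0.0727% and 0.0174% against 0.395%, 0.103% and 0.0586% in controls, and the groups overlapped (log2 fold change -1.65, SE 0.66, adjusted p = 0.155). The contribution of the mouse, the library or the odor to these values was not tested.

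*Olfr544*, its neighbour in the cluster, was high in the same library. It had 637 reads in replicate 1 of 1% SBT, a share of 1.54% and 7.75 times its median of 0.198%, and at most 0.341% elsewhere. The 2 genes shared 74.1% of the 12-base words of their coding sequences and 352 of their 50-base transcript words, 10.1% of those of *Olfr545*, so reads could be divided between them by the counting. *Olfr545* had 9.36 reads per read of *Olfr544* in that library, and at most 1.94 in any other. Without both genes the class I share of the library was 9.54%, and that of the other libraries of 1% SBT was 9.19% and 8.08%. Their controls, counted the same way, had 10.8%, 10.5% and 9.71%, each above every 1% SBT library. The 100% SBT libraries had 5.61%, 5.34% and 6.29%.

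**Figure D5:**
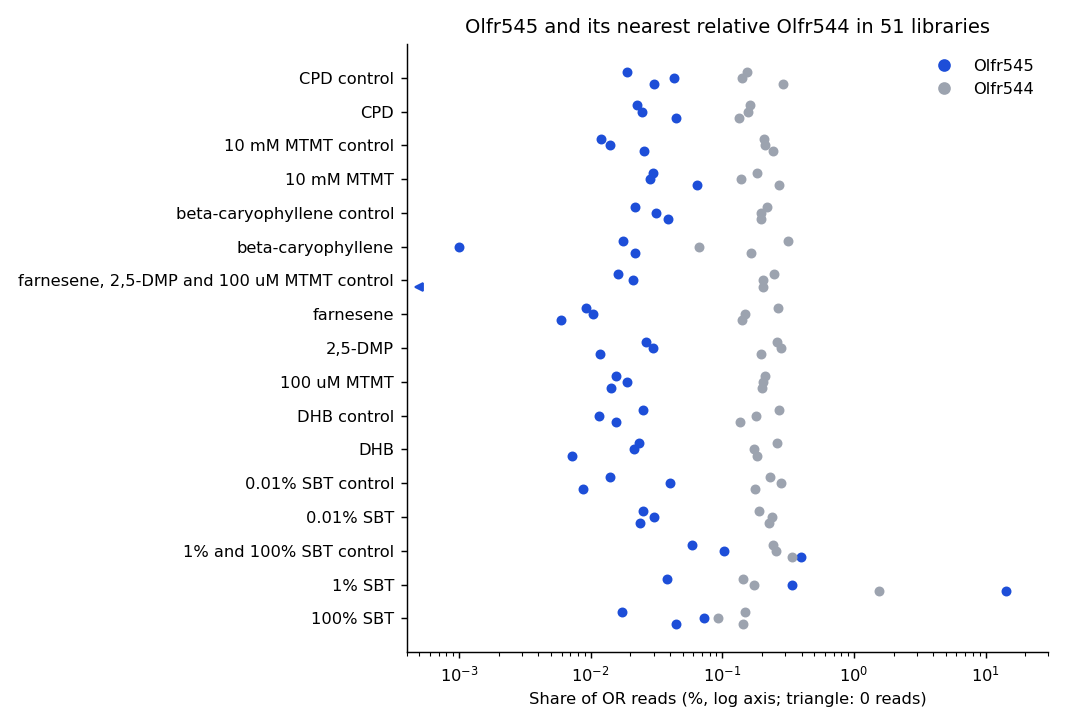
Share of OR reads (percent, log axis) of *Olfr545* and *Olfr544* in each of 51 libraries, by group, with 3 libraries per group; the triangle marks the library without a read of *Olfr545*. The median of *Olfr544* is 0.198%, with 0.0670% to 0.341% outside its highest library. Both genes are highest in the same 1% SBT library, at 14.4% and 1.54%.

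*Olfr570* and *Olfr676* were raised at least 10 times in a single library, replicate 2 of β-caryophyllene. *Olfr570* had 756 reads there (0.756%, 10.5 times its median) and *Olfr676* had 499 (0.499%, 11.1 times). The other β-caryophyllene libraries had 0.0888% and 0.0976% of *Olfr570* and 0.0545% and 0.0332% of *Olfr676*, close to their controls. The log2 fold changes were 1.59 (SE 0.74) and 1.92 (SE 0.82), both with an adjusted p of 0.904.

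Many ORs, of the class and outside it, had an extreme value in that library. Of the 75 members with enough reads, 13 (17.3%) had their highest share of all 51 libraries in it and 6 (8%) their lowest, against 7.45% and 15.1% of the 537 other ORs. Other libraries were as extreme for the class: 16% of these members were highest in SBT control replicate 1 and 18.7% lowest in replicate 2 of 100% SBT. In replicate 2 of β-caryophyllene *Olfr33* reached 0.341%, against 0.142% and 0.209% in the other libraries of the odor, and *Olfr690* reached 0.195%. *Olfr545* had 1 read in that β-caryophyllene library. *Olfr578*, named after its values had been seen, had 1489 reads (1.04%, 5.90 times its median) in replicate 3 of DHB.

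In all, 5 of 6426 pairs of a member and a library passed a rule of at least 100 reads and at least 10 times the median share of the member. They concerned 3 members (2.38%), against 25 other ORs (2.52%). At 5 times the median 3.97% of members and 9.79% of other ORs passed, and at 20 times 0.794% and 0.404%, so the order of the shares depended on the fold chosen.

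Ligands are published for 6 members taken as a list, *Olfr78*, *Olfr544*, *Olfr545*, *Olfr558*, *Olfr690* and *Olfr691*, all of which respond to carboxylic acids. None of these acids was among the odorants. None of the 6 passed in any of the 10 comparisons. Outside 100% SBT at most 1.77% of all ORs were called, and after 100% SBT 10.7% were higher and 0.762% lower. Against these shares a count of 0 among 6 genes does not separate them from other ORs. In controls their levels were 67.3 ± 15.4 for *Olfr544*, 58.0 ± 16.5 for *Olfr691*, 33.1 ± 11.3 for *Olfr690*, 27.8 ± 7.24 for *Olfr558*, 14.4 ± 5.92 for *Olfr78* and 12.8 ± 23.8 for *Olfr545*, in reads per kb per 100000 OR reads (SD, n = 21). After 100% SBT their median log2 fold change was -0.74 and each was below 0, from -1.65 (*Olfr545*) to -0.50 (*Olfr691*), beside -0.47 for the class. After 1% SBT the median was -0.34, with *Olfr558* at -1.21 and *Olfr78* at -0.92 (adjusted p = 0.994 for both). *Olfr558* had 0 of 41426 OR reads in replicate 1 of 1% SBT, which allows a share of up to 0.00724%; intervals and such limits cover counting error only.

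*Olfr78*, which is also expressed outside the nose in the carotid body and kidney, had 0.0863%, 0.129% and 0.161% in SBT controls. After 100% SBT it had 0.0919%, 0.0335% and 0.0695%, overlapping (log2 fold change -0.54, SE 0.44, adjusted p = 0.551). Over all comparisons its log2 fold change ran from -0.92 to 0.13.

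*Olfr545* was also the member with the lowest p after 10 mM MTMT. Its share was 0.0643%, 0.0282% and 0.0297% in the odor libraries and 0.0252%, 0.0141% and 0.0119% in the controls, where every odor library was above every control. The log2 fold change was 1.51 (SE 0.46), but the adjusted p was 0.449. These shares rest on 44, 24 and 27 reads against 13, 10 and 6. At 100 μM MTMT, with other controls, *Olfr545* had 15, 21 and 17 reads against 0, 26 and 20 (log2 fold change 0.27, SE 0.61, adjusted p = 0.982).

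At 100 μM MTMT the lowest p among members was that of *Olfr557*, with 0.124%, 0.133% and 0.137% against 0.262%, 0.188% and 0.163% in controls (log2 fold change -0.66, SE 0.24, adjusted p = 0.880). The control libraries all lay higher. Against the same controls, 2,5-DMP gave 0.120%, 0.139% and 0.0981% of *Olfr557* (-0.82, SE 0.25, adjusted p = 0.258). The lowest p after 2,5-DMP was that of *Olfr601*, at 0.0586%, 0.0854% and 0.0625% against 0.133%, 0.109% and 0.115% (-0.83, SE 0.25, adjusted p = 0.248). With the replicate number as a block, *Olfr557* passed after 2,5-DMP (-0.79, SE 0.23, adjusted p = 0.0427), as did 1.59% of all ORs, and the controls it shares with 100 μM MTMT and farnesene bear on both values.

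After farnesene the lowest p belonged to *Olfr593*, which had 1, 0 and 0 reads against 3, 9 and 9 in controls (adjusted p = 0.143), and 0 reads allow a share of up to 0.00242% and 0.00214% in those libraries. After DHB it belonged to *Olfr613*, with 0.0191%, 0.0222% and 0.00911% against 0.0484%, 0.0231% and 0.0479% (log2 fold change -1.14, SE 0.45, adjusted p = 0.994). After CPD it belonged to *Olfr560*, with 0.0297%, 0.0164% and 0.0283% against 0.0605%, 0.0601% and 0.0420% (-1.03, SE 0.36, adjusted p = 0.993). In the latter pair no odor library reached a control, but *Olfr560* shares 43.1% of its 50-base words with another OR. After 0.01% SBT the lowest p was that of *Olfr659*, at 0.0606%, 0.0672% and 0.0366% against 0.0874%, 0.113% and 0.0730% (-0.72, SE 0.30, adjusted p = 0.999). For β-caryophyllene it was that of *Olfr33*, at 0.142%, 0.341% and 0.209% against 0.119%, 0.0665% and 0.153% (1.14, SE 0.42, adjusted p = 0.904).

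The 6 members next to the β-globin genes, *Olfr64* to *Olfr69*, were also described as a list, because the locus houses both gene families. *Olfr69*, *Olfr68* and *Olfr67* lie before the globin genes and *Olfr66*, *Olfr64* and *Olfr65* beyond them. None passed in any comparison. Outside 100% SBT at most 1.77% of all ORs were called, so this count of 0 among 6 genes does not separate them from other ORs. Levels in controls differed among these neighbours, from 5.43 ± 3.20 for *Olfr66* to 67.6 ± 24.1 for *Olfr65*, with 24.8 ± 8.84 for *Olfr67*, 16.5 ± 7.46 for *Olfr69*, 12.8 ± 5.45 for *Olfr64* and 7.33 ± 2.70 for *Olfr68*. *Olfr65*, the highest, ranked 12 in the class. Their median log2 fold change ran from -0.47 (farnesene) to 0.03 (CPD), and after 100% SBT it was -0.35, between -1.003 (*Olfr67*) and 0.41 (*Olfr68*). *Olfr66* was above every control in each β-caryophyllene library, at 0.0279%, 0.0270% and 0.0177% against 0.00795%, 0.00566% and 0.0118% (1.58, SE 0.63, adjusted p = 0.904), on 17 to 27 reads a library against 4 to 13. *Olfr68* and *Olfr69* share 84.7% of the words of their coding sequences, so the split of reads between them is uncertain.

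Other ORs of chromosome 7 were set beside the class. The 6 ORs from *Olfr693* to *Olfr699*, which follow the last class I gene by number, had a median log2 fold change of 1.76 after 2,5-DMP with 4 of 6 higher, and 1 of 6 was higher after 100% SBT, with a median of 0.70. Of *Olfr460* to *Olfr520*, 3 of 37 were higher after 100% SBT with a median of 0.01, and 2 of 40 after 2,5-DMP with a median of 0.07. In the class I cluster no member was higher after either odor. Over all ORs, 10.7% were higher after 100% SBT and 0.841% after 2,5-DMP. With a background of 0.841%, a count of 0 does not separate the class from other ORs. Between 100% and 1% SBT, 1 of 117 members differed (*Olfr545*), against 7.55% of all ORs, and it rested on the single library described above.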

How the data were processed

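Libraries were made from whole olfactory mucosa after pS6 immunoprecipitation. Alignment by the authors used STAR on GRCm38, followed by RSEM and, for group comparisons, edgeR. The deposited values are RSEM expected counts per OR gene and library, written by the authors as whole numbers without normalization. Columns of fold changes, p-values and FDR that the authors computed were not used, and 6 columns of a table for 2-heptanone match no sample and were left out. Only OR genes are listed, so shares are percentages of OR reads, and OR reads per library ranged from 27301 to 160001.

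Groups came from the sample labels. The test was edgeR's (4.0.16, R 4.3.3; TMM over OR genes, at least 10 reads summed over the libraries compared, glmQLFit and glmQLFTest, Benjamini-Hochberg over all ORs tested, threshold 0.05). The dose contrast of 100% against 1% SBT used 1 fit of 3 groups. A standard error is the log2 fold change divided by the square root of F. Wilson intervals at 95% came from scipy 1.17.1. On simulated counts with about 200 ORs changed by 2 or 3 (log2), the test recovered 68.8% (1% SBT) to 96.0% (2,5-DMP) of them, and 78.1% for 100% SBT. Of the changes of 2 it recovered 58.3% for 100% SBT and 58.8% for 1% SBT. Smaller changes, such as those of most members, were not simulated, so these values do not describe them.

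The main test had no term for pairing, and a replicate block was run as an alternative. Odor and control libraries of equal number all had deviations correlated above 0.1 in 1% and 100% SBT, 2,5-DMP, DHB, CPD and β-caryophyllene. In those comparisons the main test may ignore a pairing of mice. The paper describes litter-matched mice without tying numbers to litters. Alternatives were the replicate block, a block of title prefix, DESeq2 1.42.0, library totals, no filter, filterByExpr, leaving out each library and a single fit to the 51. Coding sequences, transcripts and starts came from GENCODE M21 on GRCm38.

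Members and lists were chosen with earlier results of these data known. Named were members past the threshold, the 10 with the largest shares in controls, those raised in 1 library, the ligand and β-globin lists and the lowest p of each comparison. Other members singled out were chosen after their values had been seen. Nothing says that libraries of a group share no litter or cage, so p-values measure the spread between these mice.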

Additional observations from a re-analysis of the deposited data

Results flagged for a closer look

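*Olfr545* differed between the doses of SBT: the log2 fold change of 100% against 1% SBT was -6.59 (SE 1.51, edgeR quasi-likelihood test, adjusted p = 0.0099), the only class I call among the 117 members tested in that contrast. What drew attention was this test of the difference between doses that share their controls. Its share was 0.0441%, 0.0727% and 0.0174% at 100% and 14.4%, 0.336% and 0.0377% at 1%, and the groups overlapped. Without replicate 1 of 1% SBT the difference was -1.59 (adjusted p = 0.433) and no member was called. The adjusted p also rose past the threshold without replicate 1 (0.0637) or replicate 3 (0.0653) of 100% SBT, with log2 fold changes of -6.57 and -6.21. Whether the mouse, the library or the odor set the value of that library was not tested.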

How the results depend on the processing

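After 100% SBT, in place of 2 members lower, there were 5 with the replicate block, 6 with DESeq2, 12 when scaled by library totals alone, 1 with filterByExpr, 1 with the title prefix as a block, and 5 lower with 1 higher (6 in all, the higher being *Olfr571*) in 1 fit of all 51 libraries. The count ranged from 1 to 5 with a library left out. Of all ORs, 0.762% were lower in the main test, 1.71% with the replicate block and 0.571% with the prefix block. With library totals the median log2 fold change of all ORs was itself -0.47, against -0.07 with TMM. Other counts in this paragraph stand without the share of all ORs and are not read as results about the class. *Olfr642* passed under 14 of 14 settings and *Olfr550* under 7, and filterByExpr and the prefix block gave *Olfr550* adjusted p of 0.0572 and 0.0658. After 1% SBT, 1 fit of all 51 libraries called 2 members, *Olfr545* higher (adjusted p = 0.000278) and *Olfr686* lower. After 2,5-DMP the replicate block called 1 (*Olfr557*), and leaving out replicate 3 of the odor called 1 (*Olfr605*), so counts with a library left out ran from 0 to 1. For 100% against 1% SBT, in place of 1, there were 3 with the replicate block, 2 with DESeq2, 4 with library totals, 5 in the fit of all libraries and 2 with the prefix block, and 0 to 2 with a library left out. DESeq2 gave *Olfr545* no adjusted p for 1% SBT, 10 mM MTMT or the dose contrast. *Olfr545* at 1% SBT was 4.99 (log2) and ran from -0.038 to 6.20 with a library left out, the lowest without replicate 1 of 1% SBT. The replicate block changed the count of calls in no other comparison.

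Scaling by TMM factors moved the summed share to 7.15% after 100% SBT, 9.49% in its controls and 7.87% after 100 μM MTMT, beside 5.91%, 10.7% and 8.23% unscaled. Requiring 20 times the median left 1 of the 5 raised pairs of member and library (*Olfr545* at 1% SBT), and 5 times gave 7. The medians of all ORs moved by over 0.1 (log2) with library totals in 100% SBT, 10 mM MTMT, CPD, 1% SBT and the dose contrast. Depth limits members with few reads: 9 had under 100 reads in all libraries together.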

Other observations

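Some ORs close to the class by coding sequence lie outside its number rule. *Olfr243*, nearest to *Olfr628* and lying within the cluster, had 0.0168 ± 0.00911% of OR reads in controls (SD, n = 21) and passed in none of the 10 comparisons. Its log2 fold change after 100% SBT was -0.44 (SE 1.15, edgeR adjusted p = 0.890). *Olfr503*, nearest to *Olfr658*, had 46 reads over all 51 libraries and none in 37 of them, and *Olfr504*, nearest to *Olfr657*, had 0 reads in every library.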
